A study of Mus musculus with 4 samples.

Results

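Windows of intermediate methylation were examined in mouse sperm, that is, stretches of 200 bp in which the CG sites were on average neither unmethylated nor methylated. They were chosen by their measured level. A CG site qualified with at least 10 reads in each of the 4 libraries after both strands were added together, and a window needed at least 3 qualifying sites. The level of a window was the mean over its sites of the methylated share of the reads, averaged over the 4 libraries. Members were the windows of chromosomes 1 to 19 with fewer than 15 listed CG sites and a level over 25% and at most 75%. This rule selected 18422 of the 229337 autosomal windows (8.03%), or 9.45% of the 194951 autosomal windows with fewer than 15 listed sites. Of the 231489 windows with the X and Y chromosomes included, all other windows are used below only for comparison.

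The study compared swim-up sperm with HRCS (histone replacement-completed sperm) of wild-type male C57BL/6 mice, with 2 libraries per fraction. HRCS came from total sperm of caudal epididymis and vas deferens after 1 hour in M2 medium. The labels give the same tissues for the swim-up libraries, whereas the study's text describes swim-up sperm from caudal epididymis, so a difference of tissue cannot be told apart from the fraction. Swim-up sperm are motile cells recovered from the top of the medium, whereas HRCS are sperm heads that were freed of their tails by mild sonication and spun down through 82% Percoll. Methylation came from targeted bisulfite sequencing (TGBS), in which regions are enriched with capture probes and bisulfite then converts the unmethylated cytosines. Sperm from how many animals went into a library, and whether the replicates came from separate animals, is not given in the sources used here. The p-values below therefore measure the spread between these libraries, which may be technical.

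In mammals, cytosine methylation is found mainly at CG dinucleotides and is copied to the new strand after DNA replication. Male germ cells lose most of their methylation before birth and gain it again before spermatogenesis starts, so that most of the sperm genome is methylated while CpG islands at promoters are not. A sperm carries a single copy of each chromosome, so a site of middle level that is mapped uniquely is methylated in some cells and unmethylated in others. A window can reach a middle level in different ways, with every site in the middle, or with unmethylated sites beside methylated ones.

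To show what such a window looks like in sequence, 5 promoters with member windows are printed, each as the 250 bases before a RefSeq transcription start. The letters are those of RefSeq (GRCm38.p6), and the positions are those of mm9, found by matching the spacing of the CG dinucleotides to the listed sites. Every CG is in capitals and each sequence runs 5′ to 3′ in the direction of the gene. Septin9, which encodes a filament-forming GTP-binding protein, shows CGs of similar middle level throughout, as the mean of the 4 libraries. Gm40237, a predicted gene, shows a tandem repeat that lies in the longest run of members. Vmn2r29, a gene of the vomeronasal receptor family, shows a middle block between unmethylated CGs. Prkcz, the gene of an atypical protein kinase C, shows levels that are higher near the start, and Irf9, which encodes a transcription factor of interferon signalling, shows levels that are lower near the start.
Septin9 (chr11:117193377-117193626, plus strand): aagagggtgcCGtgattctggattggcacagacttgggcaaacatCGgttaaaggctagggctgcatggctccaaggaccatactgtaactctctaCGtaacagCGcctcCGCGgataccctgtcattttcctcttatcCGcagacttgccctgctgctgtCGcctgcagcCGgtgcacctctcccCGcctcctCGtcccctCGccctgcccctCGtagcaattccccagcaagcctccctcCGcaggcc
Gm40237 (chr4:118219761-118220010, plus strand): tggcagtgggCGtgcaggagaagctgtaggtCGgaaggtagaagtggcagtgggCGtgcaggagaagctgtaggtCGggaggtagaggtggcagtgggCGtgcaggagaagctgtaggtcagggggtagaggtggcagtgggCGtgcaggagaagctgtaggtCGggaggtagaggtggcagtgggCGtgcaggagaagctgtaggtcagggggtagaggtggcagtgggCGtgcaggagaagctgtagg
Vmn2r29 (chr7:7231001-7231250, minus strand): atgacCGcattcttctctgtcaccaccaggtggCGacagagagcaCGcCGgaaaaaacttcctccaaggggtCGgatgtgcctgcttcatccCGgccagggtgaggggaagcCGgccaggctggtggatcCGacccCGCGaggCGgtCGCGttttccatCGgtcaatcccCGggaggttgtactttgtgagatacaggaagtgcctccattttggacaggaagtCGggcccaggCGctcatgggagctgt
Prkcz (chr4:154718859-154719108, minus strand): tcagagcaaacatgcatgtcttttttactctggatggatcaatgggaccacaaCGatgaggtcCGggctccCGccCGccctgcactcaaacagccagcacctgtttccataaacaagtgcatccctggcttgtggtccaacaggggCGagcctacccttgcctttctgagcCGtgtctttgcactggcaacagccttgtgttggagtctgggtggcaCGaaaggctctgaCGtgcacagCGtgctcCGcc
Irf9 (chr14:56222572-56222821, plus strand): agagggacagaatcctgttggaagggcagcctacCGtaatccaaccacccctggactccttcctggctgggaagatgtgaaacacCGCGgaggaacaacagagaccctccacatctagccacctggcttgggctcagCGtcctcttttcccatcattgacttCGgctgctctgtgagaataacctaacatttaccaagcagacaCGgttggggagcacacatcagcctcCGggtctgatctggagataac

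In Septin9, all 14 printed CGs were in the middle range, with site levels from 33.1% to 44.4% as the mean of the 4 libraries. Single libraries were less even, and in swim-up replicate 2 the CGs ranged from 24.0% to 66.7%. Its 3 member windows held 26 qualifying sites and together had levels of 32.4% and 37.4% in swim-up sperm against 34.2% and 35.5% in HRCS. The fractions overlapped, with means of 34.9% ± 3.55 (SD, n = 2) and 34.9% ± 0.944 (SD, n = 2), respectively.

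In Gm40237, the sequence repeated itself with a step of 44 bases, at which 96.1% of the letters were the same. The CGs that follow the letters gtggg occur 6 times in the printed sequence and had site levels from 52.1% to 66.6%. The letters taggt occur 5 times and are followed by a CG in 3 copies, and these 3 CGs had levels from 38.8% to 41.7%. The order held in every library. The means of the former CGs were 61.7% and 58.7% in swim-up sperm against 63.3% and 56.0% in HRCS, and those of the latter were 37.2%, 40.5%, 39.1% and 42.3% in the same order. Copies of a repeat can exchange reads in mapping, so the levels of single copies are uncertain.

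In Vmn2r29, the 8 CGs between 158 and 101 bases before the start had levels from 45.4% to 63.2%. The CGs on both sides of this block were nearly unmethylated. Those from 217 to 178 bases before the start had levels from 1.39% to 10.7%, and those at 91 and 80 bases before it had 2.85% and 5.19%. The CGs nearest the start, at 26 and 16 bases before it, had 35.9% and 41.1%. Reads moved with this pattern, since each CG of the block had 81 to 126 reads per library and the flanking CGs had 13 to 46. The part of this difference of coverage in the pattern was not tested. The receptor genes of this family resemble each other, and reads of near-identical copies cannot be told apart.

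In Prkcz, the CG farthest from the start, at 197 bases before it, had a level of 24.8%, and the CG at 4 bases before it had 70.7%. In Irf9 the direction was the opposite. The 4 qualifying CGs between 165 and 88 bases before the start had levels from 55.2% to 78.5%, whereas the CGs at 46 and 21 bases before it had 35.2% and 35.6%.

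**Figure D1:**
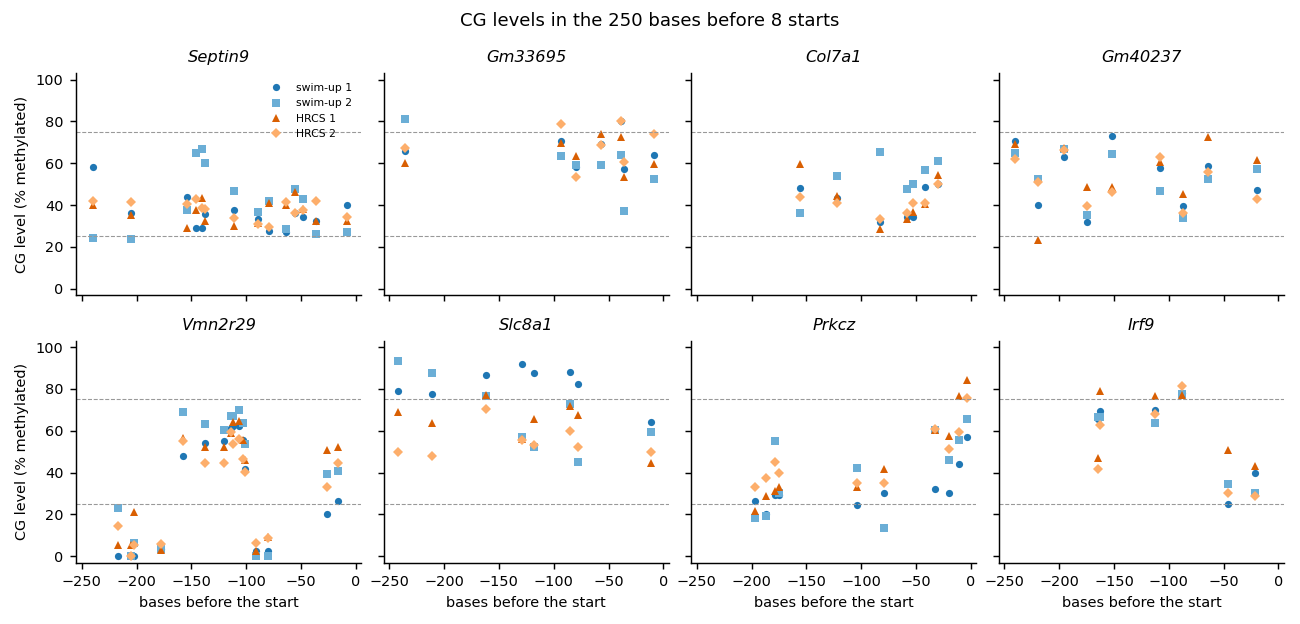
Methylation level (%) of each qualifying CG in the 250 bases before the start of 8 genes, with 1 symbol per library and dashed lines at 25 and 75%. The points of Septin9 lie mostly in the middle, with the CGs at 240 and 205 bases before the start just under 25% in swim-up replicate 2, those of Vmn2r29 drop to near 0 on both sides of a middle block, and those of Prkcz and Irf9 change in opposite directions towards the start.

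The 18422 members held 82987 qualifying sites, with a median of 4 per window. Their median level was 48.5% with quartiles of 35.4% and 62.7%. Levels were spread over the whole range, from 4430 members over 25 to 35% and 3163 over 45 to 55% to 3842 over 65 to 75%. The limits do not mark a gap. There were 2340 members over 25 to 30% and 2805 windows over 20 to 25% just outside, and 2058 members over 70 to 75% beside 2347 windows over 75 to 80%. The lowest member, at chr6:127287401-127287600, had 21.4% and 22.9% in swim-up sperm against 25.6% and 30.04% in HRCS. The highest window at or under 25%, at chr2:75541201-75541400, had 27.3%, 21.3%, 30.6% and 20.8% in the same order of libraries. The highest member, at chr13:118842001-118842200, had 78.5%, 63.8%, 80.5% and 77.2%, and the lowest window over 75%, at chr2:31150601-31150800, had 72.3%, 72.3%, 83.7% and 71.7%. Windows on both sides of a limit thus lay on different sides of it in single libraries.

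Members were more common where CG sites were sparse, and the share fell with each step in the number of listed CG sites. It was 12.1% of the autosomal windows with 3 to 5 listed sites, 7.68% with 6 to 9 and 3.09% with 10 to 14. Among windows with 15 or more listed sites, which the rule leaves out, 197 (0.573%) had a level in the same range. At the limit itself, 71 members had 14 listed sites and 48 windows of middle level had 15. Between chromosomes the share of members among windows with fewer than 15 listed sites ranged from 8.46% on chromosome 13 to 11.3% on chromosome 10.

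The level was not a matter of a single library. Each library put 87.7% to 90.3% of the members in the range, and all 4 libraries did so for 12735 members (69.1%). Because the 4 libraries chose the members, the choice was also made on 1 fraction and read in the other. Of 18350 windows chosen by the mean of the swim-up libraries, 88.2% were in the range in HRCS, and of 18519 chosen by HRCS, 87.4% were in the range in swim-up sperm. A median of 104.5 to 124 calls per library stood behind a member, where a call is 1 read at 1 site. A median of 25 to 31 reads per library covered a site.

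Levels were also read on each strand. Most calls of the members (85.1%) came from the minus strand in the notation of the files. For 12484 of their sites each strand had at least 10 reads over the 4 libraries, and the mean level was 49.65% on either strand. At these sites the strands differed by a median of 8.33 percentage points, and 7256 of the 9338 sites of middle level were in the middle range on both strands.

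The sites within the members were sorted into low (at most 25%), middle and high (over 75%) by the mean of the 4 libraries. Of the 82987 sites, 73.4% were in the middle, 14.3% were low and 12.3% were high. Members were then divided into 4 classes. In 6159 members (33.4%) every site was in the middle, and these are called all-intermediate. Low and middle sites occurred together in 5646 members, middle and high sites in 5101. Low and high sites occurred together in 1516 members (8.23%), which are called mixed. The classes follow from the level of the windows in part. The median level was 31.7% for windows of low and middle sites, 68.0% for middle and high, and 49.4% and 49.1% for all-intermediate and mixed members. The range from the lowest to the highest site of a window had a median of 18.1 points in all-intermediate and 70.8 points in mixed members.

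**Figure D2:**
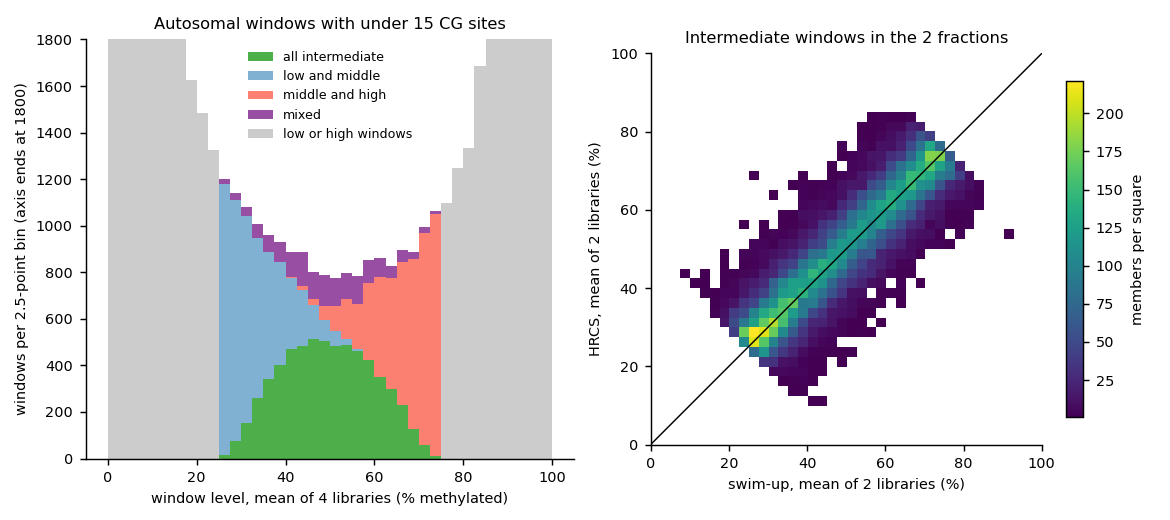
Left, number of autosomal windows with fewer than 15 listed CG sites per bin of 2.5 points of the window level (mean of 4 libraries, %), with members coloured by class and the axis ending at 1800. Right, members per square of 2.5 by 2.5 points of the mean level in swim-up sperm (x axis, %) and HRCS (y axis, %), with the line of equal levels. All-intermediate members peak near the centre of the range, and the fractions lie along the line.

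Both classes were seen in the fractions separately. When sites were sorted in swim-up sperm alone, 71.9% of the members had the same class in HRCS. The share was 59.9% for the 1719 members mixed in swim-up sperm, of which 73 were all-intermediate in HRCS, and 66.7% for the 5562 all-intermediate ones, of which 57 were mixed in HRCS. The deviation of a site from the mean of its window was also compared between libraries. Over all 82987 sites, Pearson's r was 0.720 to 0.766 for the 6 pairs of libraries. It was 0.913 to 0.930 within mixed members and 0.372 to 0.458 within all-intermediate ones, where the sites differ less. These values describe sites that share windows and libraries, and the classes were formed from the same libraries.

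In mixed members the low and the high sites mostly lay apart. Along the window, 1344 of the 1516 changed from low to high or from high to low at 1 place only (88.7%), leaving the middle sites aside. A single low or single high site makes this easy to meet, and among the 87 mixed members with at least 2 low and 2 high sites, 50 changed at 1 place. The median distance between the closest low and high sites of a window was 70 bp, with quartiles of 35 and 111 bp, but 95 mixed members had a low and a high site within 10 bp. No middle site was present in 269 mixed members. Neighbouring sites differed more the farther apart they were. The median difference rose from 8.29 points at 2 to 10 bp to 19.5 points at 101 to 199 bp over all members, from 17.0 to 55.3 points in mixed members, and from 5.73 to 10.01 points in all-intermediate ones. Of the 64565 neighbouring pairs, 13625 differed by over 25 points in the mean of the 4 libraries. When pairs were chosen in swim-up sperm alone, the same site was the higher in HRCS in 14444 of 14773 (97.8%), and when chosen in HRCS, it was the higher in swim-up sperm in 14142 of 14447 (97.9%). The windows holding these pairs were still chosen on all 4 libraries.

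The 5 mixed members with the most qualifying sites that were low or high in each library on its own lay far apart in the genome, except for 3 on chromosome 11. They were deep, with 971 to 3031 calls per library, compared with the median of 104.5 to 124 for all members. In the first, at chr11:3025201-3025400, 3 neighbouring high sites at 89.5%, 93.1% and 95.2% were followed by 6 low ones at 7.91% to 10.6%. The high sites had 11 to 26 reads per library and the low sites 189 to 330, and the part of this step of coverage in the pattern was not tested. In the second, at chr8:103516201-103516400, a single site at 1.02% stood among 4 sites at 79.9% to 93.7%. The nearest high site, 5 bp away, had 80.1%, and coverage was alike, with 187 to 301 reads per library at both. This low site was at 0 to 2.14% in every library.

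In the third, at chr11:3052801-3053000, sites at 86.3%, 91.6% and 89.8% were enclosed by low sites at 2.78% and 8.42%. The fourth, 400 bp farther on at chr11:3053201-3053400, had a high site at 81.5%, 2 low ones at 3.999% and 4.05% and 2 high ones at 92.9% and 93.9%. Most sites of the third and the fourth had over 1221 reads in total. With such sites of extreme coverage (top 0.1%) left out, both windows have too few sites and drop out. The part of this depth in their pattern was not tested. In the fifth, at chr13:3372601-3372800, low sites at 7.16% and 7.68% were followed by high ones at 98.4% and 90.5% and by a low one at 1.93%. The window levels of these 5 members differed between fractions by at most 2.71 points, in the fifth. The third had 55.7% and 55.3% in swim-up sperm against 55.3% and 56.7% in HRCS, and edgeR's quasi-likelihood test gave no unadjusted p below 0.103 for any of them or for the 5 all-intermediate members named next. In all, 60 mixed members had every site low or high in each of the 4 libraries. The mean reads at low and high sites differed more than 4-fold in 17 of the 1516 mixed members (1.12%), and the low sites were the deeper in 14 of these. Over all sites of a window, the deepest had more than 4 times the reads of the shallowest in 2.57% of the mixed and 0.682% of the all-intermediate members, compared with 0.440% of the low and 0.233% of the high windows. The part of this coverage in the classes was not tested.

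The 5 all-intermediate members with the most qualifying sites held 12 or 13 sites, each of them over 25 and at most 75% in every library. The first, at chr5:129731801-129732000, had window levels of 52.4% and 53.0% in swim-up sperm against 56.8% and 54.0% in HRCS, and its 13 sites ranged from 49.6% to 61.7%. The second, at chr7:133845001-133845200, lay 2634 bp (from its middle) from a start of Coro1a, the gene of an actin-binding protein of leukocytes. Its levels were 60.6%, 54.7%, 54.3% and 58.8%, with sites from 51.9% to 62.4%. The third, at chr9:72704601-72704800, varied the most between libraries, with 64.5% and 52.4% in swim-up sperm against 42.7% and 52.0% in HRCS. The fourth and the fifth had mean levels of 50.6% and 49.0%. In all, 1118 of the 6159 all-intermediate members (18.2%) had every site in the middle range in each of the 4 libraries.

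**Figure D3:**
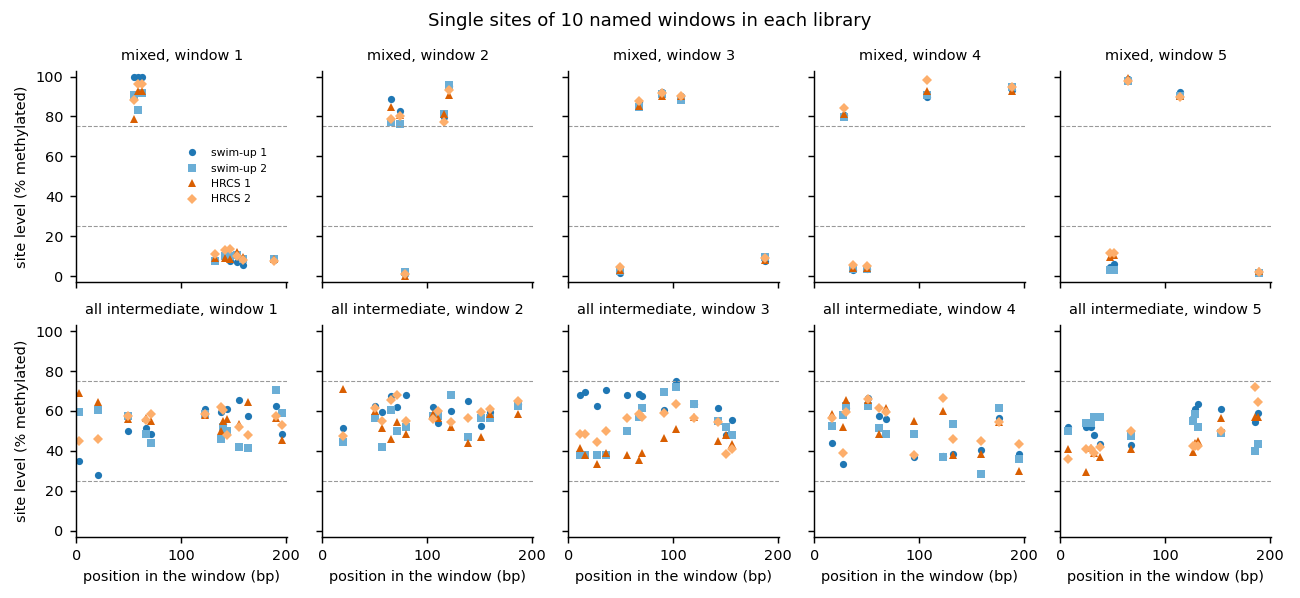
Methylation level (%) of each qualifying site by its position in the window (bp) for 5 mixed members (top) and 5 all-intermediate members (bottom), with 1 symbol per library and dashed lines at 25 and 75%. In the top row the points of all 4 libraries lie near the bottom or the top of the scale, and in the bottom row they stay between the lines.

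The comparison asked whether HRCS differ in methylation from swim-up sperm. The study found incomplete histone replacement in only a small part of swim-up sperm, so most cells of both fractions had completed it. The comparison therefore says little about histone replacement itself. Over the 18422 members the mean level was 49.4% in replicate 1 and 48.0% in replicate 2 of swim-up sperm. In HRCS it was 49.9% and 49.3%, and the ranges overlapped. The means were 48.7% ± 0.954 (SD, n = 2) and 49.6% ± 0.431 (SD, n = 2), a difference of 0.931 points. The difference was 0.257 points without swim-up replicate 2, which had the lowest mean, and 1.61 points without swim-up replicate 1. The swim-up replicates differed from each other by more than 0.931 points. For HRCS against swim-up sperm the two-sided exact permutation test gave p = 0.667, where 0.333 is the smallest p that 2 libraries against 2 allow. HRCS minus swim-up was 1.05 points in all-intermediate members (exact permutation p = 0.667), 0.966 points in windows of low and middle sites, 0.818 points in windows of middle and high sites and 0.689 points in mixed members (exact permutation p = 1). Without swim-up replicate 2 the difference was 0.393 points in all-intermediate members and turned to −0.155 points in mixed ones. Without swim-up replicate 1 these were 1.71 and 1.53 points, and without HRCS replicate 1 that of all-intermediate members was 0.633 points. For comparison, it was 0.178 points in the 96653 low autosomal windows with fewer than 15 listed sites and −0.325 points in the 79876 high ones. The sign thus differed between members and high windows, and the difference between these sets was not tested.

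No member was called different between the fractions. With only 2 libraries per fraction, this does not show that the members were alike in both. The edgeR fit used a dispersion common to all windows, and whether it holds for windows of middle level was not tested. The shares below with an unadjusted p under 0.05 therefore do not show that members differed less than other windows. In edgeR's quasi-likelihood fit, adjusted by Benjamini-Hochberg over all 231489 windows, the test called 7 windows (0.00302%) with an adjusted p under 0.05, and 0 of them were members. At an unadjusted p under 0.05, 401 members were found (2.18%), of which 257 were higher and 144 lower in HRCS, against 4.48% of all windows, of which 5281 were higher and 5095 lower. The count rose to 891 members (4.84%, against 6.39% of all windows) without swim-up replicate 1. It was 217 (1.18%, against 3.35%) without HRCS replicate 1 and 218 (1.18%, against 3.21%) without HRCS replicate 2. With every site thinned to 10 reads the order was reversed, with 651 members (3.53%) against 2.54% of all windows. limma on the logit of the calls called 0 members as well and 0 of all windows (0%). At an unadjusted p under 0.05 limma found 76 members (0.413%), against 5.54% of all windows. Fisher's exact test on pooled calls, which takes no account of the spread between replicates, called 559 members (3.03%), against 1887 of all windows (0.815%). The HRCS libraries both lay above the swim-up ones in 3619 members (19.6%), against 17.3% of all windows, and below both in 2491 (13.5%), against 15.8%.

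By class, the share with an unadjusted p under 0.05 was 2.79% for all-intermediate members, 1.93% for windows of low and middle sites, 2.10% for middle and high and 0.858% for mixed members. The smallest adjusted p among the members was 0.408, at chr10:60282201-60282400. This window lay 12029 bp from the nearest start that was placed, that of Unc5b, a netrin receptor, and was chosen after its values were seen. Distances here are from the middle of the window. Its levels were 84.7% and 95.6% in swim-up sperm against 52.7% and 55.5% in HRCS, on 67 to 82 calls per library. It also had the largest fall of any member, 36.0 points. The largest rise, 42.8 points, was found at chr9:98864201-98864400, 8274 bp from a start of Foxl2, a forkhead transcription factor of the ovary. There the libraries of a fraction differed widely, with 38.0% and 13.1% in swim-up sperm against 56.2% and 80.6% in HRCS on 31 to 42 calls.

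Between single libraries, differences were of the same size within and between fractions. The median absolute difference of a member was 6.64 points between the swim-up libraries, 5.52 points between the HRCS libraries and 5.72 to 6.51 points between libraries of different fractions. The share of members that differed by over 10 points was 31.4%, 23.8% and 25.3% to 30.6%, respectively. With the 2 libraries of each fraction averaged, 2573 members (13.97%) differed by over 10 points and 200 (1.09%) by over 20. At single sites, the chi-square of the difference between 2 libraries averaged 1.34 to 1.62 over 56892 to 62038 member sites with sufficient reads, where sampling of reads alone gives 1. The 3 pairs with swim-up replicate 2 were the highest, at 1.60 to 1.62.

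The share of windows near CpG-rich unmethylated DNA lay between those of low and high windows. A dense low window was taken as an autosomal window with at least 15 listed CG sites and a level of at most 25%, of which there were 33968. Such a window was found within 1000 bp of 18.99% of the members, compared with 56.3% of the low and 1.52% of the high windows. By class, the share was 37.1% for mixed members, 27.5% for windows of low and middle sites, 15.4% for middle and high and 9.64% for all-intermediate members. At 200 bp, that is, beside a dense low window, 0.349% of the windows with fewer than 15 listed sites were members. The share was 2.41% at 400 bp, 15.6% at 600 to 1000 bp and 16.7% at 1200 to 2000 bp, and 9.94% to 10.6% farther away. Most members were thus outside such borders, with 10109 of them at 10200 bp or more. The number of listed sites enters both the rule and the definition of a dense window, so these shares are given as a description.

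**Figure D4:**
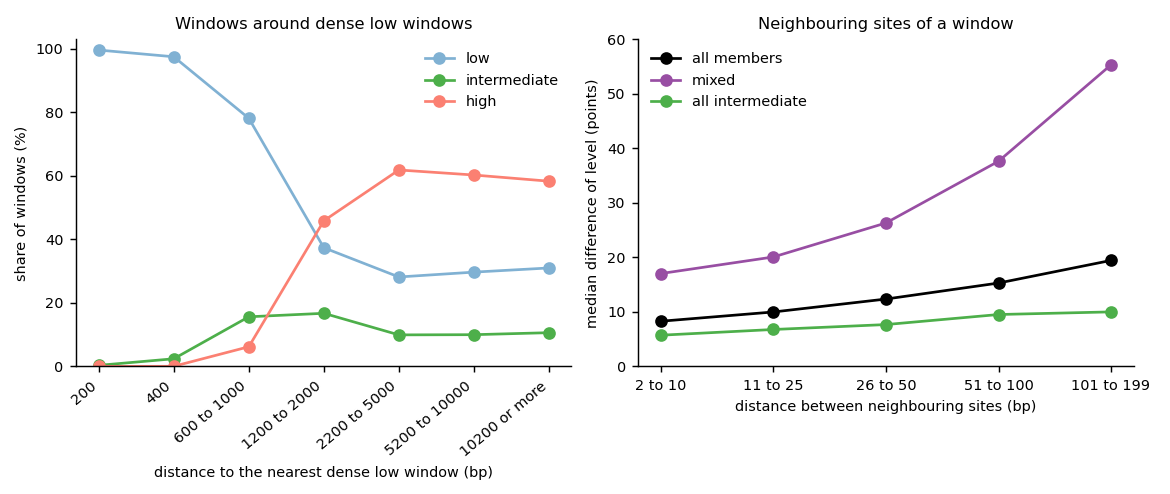
Left, share (%) of autosomal windows with fewer than 15 listed CG sites that were low, intermediate or high, by distance (bp) to the nearest dense low window. Right, median difference in level (points) between neighbouring sites of a member by their distance (bp). The intermediate share is highest at 600 to 2000 bp, where low windows give way to high ones, and the difference between sites rises with distance most steeply in mixed members.

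The windows on both sides were known for 3214 members. All-intermediate members mostly stood between windows that were intermediate themselves, which was the case for 58.1% of 1081. Windows of low and middle sites had a low neighbour on one side and an intermediate one on the other in 55.7% of 1101, and windows of middle and high sites had an intermediate and a high neighbour in 48.9% of 771. Of 261 mixed members, 33.7% had a low and an intermediate neighbour, 21.5% stood between intermediate windows and 21.5% had an intermediate and a high neighbour. A further 20.3% stood between a low and a high window, compared with 11.5% of the windows of middle and high sites, 9.63% of those of low and middle sites and 5.55% of the all-intermediate ones. A low window on both sides was rare, with 52 of the 3214, as was a high window on both sides, with 118.

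Adjoining members formed runs along the chromosome. There were 13957 runs, of which 10604 were a single window, 2547 had 2 windows and 806 had 3 or more. A window without enough qualifying sites, or with 15 or more listed sites, ends a run as well as one of another level, and 5761 members (31.3%) had no measured neighbour on either side. All-intermediate members were in runs of 3 or more in 22.3%, compared with 10.999% of windows of low and middle sites and 11.98% of middle and high. The levels of the windows of a run were not equal. The median range within a run was 10.6 points for 2 windows and 22.4 points for 5 windows. A range over more windows is wider by construction, so the rise with length is not read as a result.

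The longest run had 9 windows over 1800 bp, at chr4:118219601-118221400, and contains the start of Gm40237 whose repeat is printed above. Of its 49 sites, 48 were in the middle and 1 was high, and its windows ranged from 52.9% to 67.5%. The mean of its sites was 60.4% and 55.4% in swim-up sperm against 59.9% and 57.9% in HRCS. The window on its right was at 97.3%. Calls per window and library ranged from 44 to 3896. Of its 39 sites past the printed bases, the last at 118221335, 32 had another site of the run exactly 44 bp away, so the spacing of the repeat went on beyond the printed bases. The part of the repeat in the level of this run was not tested.

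Of the 6 runs of 7 windows, 4 were described by the rule. The run at chr10:79476201-79477600 lay 2060 bp from a start of Arhgap45, a GTPase-activating protein. It had means of 33.6% and 30.3% in swim-up sperm against 36.8% and 37.4% in HRCS, with 50 middle and 11 low sites and a window at 81.8% on its right. The run at chr7:4870601-4872000, 2188 bp from a start of Nat14, an acetyltransferase gene, held 3 low, 44 middle and 12 high sites. Its windows ranged from 36.4% to 74.2%. The window on its right was also intermediate, at 39.0%, and was left out only because it had 15 or more listed sites. The run at chr2:164777801-164779200, 7146 bp from a start of Slc12a5, the potassium-chloride cotransporter of neurons, had windows from 30.003% to 67.3%. The run at chr4:88400801-88402200, 1548 bp from a start of Gm13286, was the most even of these 4, with 42 of 43 sites in the middle and windows from 31.7% to 47.7%. Its means were 45.6% and 35.7% in swim-up sperm against 39.2% and 37.7% in HRCS, and the fractions overlapped.

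**Figure D5:**
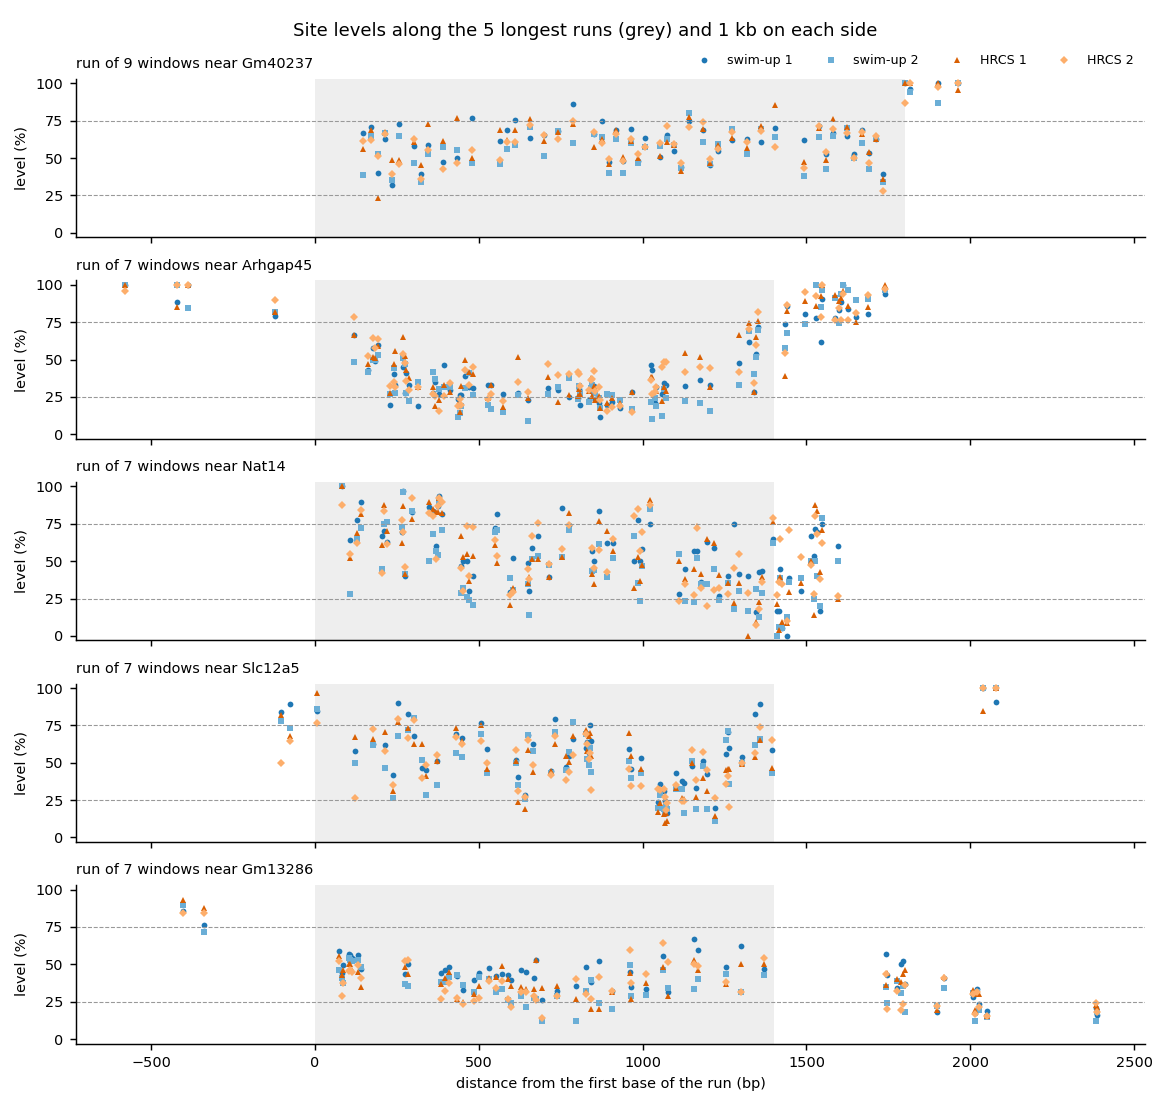
Methylation level (%) of each qualifying site by distance (bp) from the first base of the run for the 5 longest runs (grey) and 1 kb on each side, with 1 symbol per library and dashed lines at 25 and 75%. The run near Gm40237 ends at sites close to 100%, and the run near Arhgap45 lies mostly below 50% between methylated flanks.

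Few promoters were intermediate. The 250 bases before 18197 RefSeq starts with at least 6 CGs could be placed, and 12052 autosomal genes had at least 1 window there. A member was among the windows of 228 genes (1.89%), and of the 23116 windows 22217 were low and 284 (1.23%) were members. Of the 12867 windows with fewer than 15 listed sites, which alone can be members, these were 2.21%. A member window can reach past the 250 bases, and in 32 of the 228 genes no qualifying site of a member lay within them, which leaves 196 genes (1.63%). All 15 germline genes with windows had low promoters, among them Dazl, Ddx4, Sycp1 and Sycp3, genes of germ cell RNA binding and of meiotic chromosome pairing, with a highest window of 4.16%. This list holds the germ cell markers used to check the cells, and the promoter of H19, which is methylated in sperm, was not analysed here. Of the imprinted genes, 22 had windows and none was above 13.4%, and 8 of 10 pluripotency genes had low windows only. The exceptions were Esrrb and Pou5f1, both transcription factors of pluripotent cells, which had high windows as well as low ones. Of the 47 listed genes with windows 0 had a member there, a count near that given by the 1.89% of all genes.

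The 240 placed sequences with a member window had a median of 7 CGs in 250 bases, compared with 17 for the 13374 whose windows were all low and 6 for the 415 whose windows were all high. The letters GGGCGG, a site known for binding Sp1, were found on either strand in 35.4% of them, compared with 62.8% of the low, 20.0% of the high and 61.0% of all 14037 promoters. CCAAT was found in 31.2%, 35.0%, 26.02% and 34.7%, and TATAAA in 8.75%, 5.00%, 9.88% and 5.21%, respectively. A promoter was placed only with at least 6 CGs in its 300 bases, so promoters poorer in CG are not in these shares, and GGGCGG itself holds a CG. The rule also leaves out windows with 15 or more listed sites. Among promoters whose windows all had fewer, the median was 7 CGs for the 226 with a member, 10 for the 4359 low and 6 for the 414 high ones, and GGGCGG was found in 33.2%, 44.8% and 20.05%, respectively.

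The bases beside a CG were read for 777 member sites within these promoters. Where both neighbours of the CG were G or C, the mean deviation of the site from its window was 1.47 to 1.94 points in the 4 libraries (326 sites). With 1 neighbour A or T it was −2.84 to −2.33 points (332 sites), and with A or T on both sides −4.88 to −3.28 points (119 sites). The order was the same in each library. The sites of a window are not independent, and no test was made.

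The promoters with the most qualifying member sites after Septin9 were those of the predicted genes Gm33695, Gm34081 and Gm41911 and of Col7a1, the collagen of the anchoring fibrils of skin. Over its member windows Gm34081 had 27.8% and 30.4% in swim-up sperm against 35.1% and 33.4% in HRCS, and its fractions did not overlap. Its 7 qualifying sites within the 250 bases had 30.7% and 42.4% against 32.6% and 48.5%, so the fractions overlapped there. Its member windows end at 110778600, near the listed imprinted gene Meg3, whose first window starts at 110778801 and had a level of 13.4%. The 7 sites of Col7a1 within the 250 bases had 41.5% and 52.9% in swim-up sperm against 42.5% and 40.9% in HRCS. These overlapped. Over its member windows the levels were 38.6% and 44.6% in swim-up sperm against 34.7% and 32.9% in HRCS. The fractions did not overlap there, but edgeR gave an adjusted p of 1 for each of its 2 windows. The same held for Prkcz, with 38.3% and 46.9% in swim-up sperm against 53.8% and 53.6% in HRCS, and for Slc8a1, the sodium-calcium exchanger of heart muscle, with 81.6% and 70.2% against 67.9% and 61.2%. The member window of 3110070M22Rik had 70.7% and 84.0% against 65.6% and 57.9%, on 713 to 1218 calls, and the lowest unadjusted edgeR p of the 34 named promoter windows, 0.00564 (adjusted p = 1). None of its 12 sites lay within the 250 bases, and the start nearest to it was that of Tmem267, at 220 bp. The 38 qualifying sites within the 250 bases had means of 65.04% and 64.99% against 54.1% and 55.6%, a difference that was not tested for these sites as a set. The window that holds most of them was part of the edgeR fit, but its p is not reported here. Denn2b, which encodes a DENN domain protein, had 32.7% and 30.2% against 36.1% and 41.5% (adjusted p = 1). C77080 had 74.6% and 63.8% against 69.1% and 69.4%, and its fractions overlapped. Of the 34 windows, 2 had an unadjusted p under 0.05, near the 4.48% of all windows. Fractions without overlap are common, since the HRCS libraries both lay above the swim-up ones in 19.6% of all members and below in 13.5%.

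The last 4 genes, among them Irf9, were named after their values were seen. Zap70, the kinase of the T cell receptor, had 40.4% and 40.6% in swim-up sperm against 48.4% and 48.3% in HRCS over the 11 sites of its member window (edgeR adjusted p = 1). None of these sites lay within the 250 bases before the start, whose 7 CGs had levels from 71.1% to 81.0%. Irf9 had 53.7% and 50.998% against 55.5% and 49.6%, and Cxcl10, a chemokine induced by interferon, had 44.4% and 39.0% against 33.0% and 48.2%. Ccrl2, an atypical chemokine receptor, had 54.2% and 70.4% against 60.3% and 57.8%. In these last 3 genes the fractions overlapped.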

How the data were processed

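DNA methylation was measured by TGBS in 2 libraries of swim-up sperm and 2 of HRCS. The authors enriched 300 ng of DNA with capture probes, prepared libraries by post-bisulfite adaptor tagging, sequenced single reads of 100 cycles and mapped them to mm9 with Bmap. They deposited read counts per CG site and strand, with no normalization: per the file layout 1 column holds methylated reads and 1 all reads. The columns are unnamed. The smaller of the pair was read as the methylated count, which cannot by itself be told from an unmethylated count, and windows dense in CG were then near 0. A genomic T and an unmethylated C give the same letter after bisulfite. The libraries held 78562921 and 71379227 calls (swim-up) and 89403347 and 78381101 (HRCS). At the minimum of 10 reads a site is known to 10 points per read. The sources used here name no removal of duplicate reads, and a read spanning several sites counts at each.

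Strands were added, windows and levels formed as stated, and calls per window tested over all 231489 windows with edgeR's quasi-likelihood test (edgeR 4.0.16, R 4.3.3), whose terms were the library, the methylated state and its interaction with HRCS, and whose dispersion was common to all windows. Mean levels were compared by two-sided exact permutation tests. Python 3.11.15, numpy 2.4.6, pandas 2.3.3, scipy 1.17.1, matplotlib 3.10.9 and limma 3.58.1 were also used. The fit was tested on simulated data with 200 changed windows, of which 197 had the right sign. This count does not say how many such changes would be called. RefSeq promoters (GRCm38.p6) were placed in mm9 where the whole spacing pattern of at least 6 CGs over 300 bases occurred exactly once, on the chromosome and strand RefSeq gives: of 18541 such promoters, 24 had no match, 284 had several and 18197 were used. Exons, introns and repeats of mm9 were not analysed here.

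Samples were grouped by their labels. Named were the 5 longest runs, the 5 mixed and 5 all-intermediate members with the most sites of their kind in every library, up to 12 promoters with the most qualifying sites, and the windows nearest the limits. Called members would have been named first, and there were 0. Lists held 20 germline, 30 imprinted and 16 pluripotency genes. The members, classes and lists were chosen with earlier results of these data known. Alternatives were read minimums of 5 and 20, windows of 100 and 500 bp or shifted by 100 bp, at least 5 sites, thinning to 10 reads, other limits, pooled levels, sites of extreme coverage left out, other tests, and each library left out.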

Additional observations from a re-analysis of the deposited data

How the results depend on the processing

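HRCS minus swim-up stayed positive over all 16 alternatives for all members (0.257 to 1.61 points) and for all-intermediate members (0.393 to 1.71 points). With each library left out in turn these ranges were the same, and for mixed members the range was −0.155 to 1.53 points. The reversal to −0.155 points came without swim-up replicate 2, and no exact permutation p of this design can pass 0.05. The deviations of same-numbered libraries correlated at −0.0069 over members. This shows no shared deviation of windows, but cannot tell whether these libraries were prepared together. With the replicate block the differences equal the main ones by construction (0.931, 1.05 and 0.689 points), so this alternative says nothing more on their sign. The edgeR fit with the block called 0 members. Members past the adjusted p stayed at 0 in 16 of 20 alternatives. Fisher's exact test on pooled calls gave 559, of 1887 windows called in all, and leaving out each library gave 0 to 1, of 2 to 16 in all.

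Single members were called in 3 alternatives and are named for that reason. With at least 20 reads, 1 was called, of 2 in all 116132 windows, at chr19:3935601-3935800 (0 and 1.59% in swim-up sperm against 61.0% and 65.3% in HRCS). Its levels rested on 3 qualifying sites of 9 listed, with 65 to 136 calls per library. With limits of 20 and 80%, 1 was called at chr9:67333801-67334000 (96.8% and 96.4% against 56.5% and 52.1%). Without swim-up replicate 1, the window at chr7:87231001-87231200 was called, with 21.0% in swim-up replicate 2 against 51.8% and 59.4% in HRCS and 56.5% in the library left out. That fit assumes that the lone swim-up library varies like the HRCS pair, whereas the SD over both swim-up libraries was 25.1 points. The second had a level just over 75% and became a member through the wider limits, with 7 windows called in both settings. The cause of the other 2 changes was not tested.

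Counts depended on the definitions. Members numbered 6703 to 27234 over the alternatives, with 8299 at a minimum of 20 reads and 6703 with at least 5 sites. All-intermediate members were 33.4% of the members, 44.5% in windows of 100 bp and 18.4% in windows of 500 bp, and mixed members 8.23%, 3.99% and 25.6%. With sites called low and high at 20 and 80%, 9343 members were all-intermediate and 777 mixed. At 30 and 70% these were 3616 and 2553. Thinned to 10 reads, all-intermediate members fell to 29.3% and mixed members rose to 9.40%. The longest run had 7 to 17 windows. At 10 reads a site near a limit can fall in either class by counting error alone.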
